A study of Mus musculus with 2 samples.

Results

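Spi1, Elf1 and Etv6 are 3 genes of the ETS family of transcription factors, and the data below show where chromatin bound by Scl (Tal1) was enriched around them in HPC-7 cells. The members were set by position: 100 kb on chromosome 2 for Spi1, 180 kb on chromosome 14 for Elf1 and 320 kb on chromosome 6 for Etv6. Together these 600 kb held 11991 of the 52836440 windows of 200 bp tested in sample 1, and 11988 of 52613116 in sample 2. HPC-7 is a mouse blood progenitor line derived from embryonic stem cells and kept in medium with stem cell factor. Chromatin was fixed with 0.4% formaldehyde, sheared to 200 to 500 bp and precipitated 1 time with an antiserum to the Scl protein, and the DNA was divided into 3 portions. Sample 1 joins the portions read in lanes 7 and 8 in parallel (build mm9), with more DNA loaded in lane 8, and sample 2 is the portion read at a second site (build mm8). There is 1 group, with no control or input library among the data used here. Both samples carry the same precipitated DNA, so every interval and p below covers counting error only. The assay records enrichment by position and no expression, so the cell line was not checked against marker genes.

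ETS factors share a DNA-binding domain that reads the core GGAA. Spi1 encodes PU.1, which directs the myeloid and B lymphoid lineages. Its best studied enhancer, the upstream regulatory element, carries sites for RUNX and ETS factors. Elf1 encodes an activator made in blood and endothelial cells, and Etv6 (Tel) encodes a repressor that adult bone marrow stem cells need. Scl is a basic helix-loop-helix factor that binds E-boxes (CANNTG) with an E-protein partner. In progenitors it often sits in a complex with GATA factors, LMO2 and LDB1, and ETS sites are found in many of the enhancers that this complex occupies.

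The bases below lie within 150 bp of the centre of 6 windows described further on. Not all named windows are shown, and each stretch given holds a motif, so the display does not tell how common the motifs are. Spi1 window 4 and Etv6 window 2, called in sample 1, are left out, and their covered bases held none of the motifs. Some stretches lie just outside the 200 bp window itself, within the 300 bp around its centre. They were read from sample 2 with the aligner's substitutions put back to the genome base, in build mm8 on the plus strand, and only some of the stretches that reads cover are given. Capitals mark motifs on either strand. A GATA motif was AGATAA or the form AGATAG, or either of those with T as its first base. An E-box was CANNTG and an ETS core GGAA, and a RUNX core was TGTGGT or the form TGCGGT. An E-box that overlaps another motif was counted under both. The capitals do not show bound sites.
Spi1 window 2, chr2:90883674-90883714: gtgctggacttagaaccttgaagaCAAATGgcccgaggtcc
Spi1 window 2, chr2:90883842-90883920: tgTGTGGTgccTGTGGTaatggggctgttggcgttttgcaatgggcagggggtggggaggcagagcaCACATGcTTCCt
Spi1 window 2, chr2:90883923-90883950: ggtgactgggcgcTTCCtgttttctcag
Spi1 window 3, chr2:90897451-90897491: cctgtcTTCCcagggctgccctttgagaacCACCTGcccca
Elf1 window 4, chr14:78264415-78264481: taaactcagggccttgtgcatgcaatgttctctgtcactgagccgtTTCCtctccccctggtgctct
Etv6 window 1, chr6:134081229-134081290: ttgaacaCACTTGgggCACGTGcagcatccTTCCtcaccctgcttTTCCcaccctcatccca
Etv6 window 4, chr6:134192523-134192591: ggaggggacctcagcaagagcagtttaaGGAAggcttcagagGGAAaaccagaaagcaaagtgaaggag
Etv6 window 4, chr6:134192640-134192688: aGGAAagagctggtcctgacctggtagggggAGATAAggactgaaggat
Etv6 window 5, chr6:134238862-134238893: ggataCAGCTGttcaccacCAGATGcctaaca

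Spi1 window 2 held a pair of RUNX cores in 1 covered stretch, the only RUNX cores in the covered bases around the 15 named windows. Past the end of that window, within the 300 bp around its centre, lay ETS cores in the letters TTCC, the reverse complement of GGAA. Etv6 window 4 held an AGATAA motif, and its 3 ETS cores all lay at lower coordinates than that motif. The E-box CAGCTG shown for Etv6 window 5 lies just before the start of that window. The covered bases of these 300 bp held no pair of an E-box and, 7 to 9 bp on, a GATA motif at any named window.

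Sample 1 held 5632119 distinct reads, counted by chromosome, strand and 5′ end, and sample 2 held 4150610, or 2.96 and 2.18 reads per kb over an effective genome of 1900000000 bp. An average window of 200 bp thus held 0.593 reads in sample 1 and 0.437 in sample 2. The loci held 2040 distinct reads of sample 1 (0.0362% of them) and 1464 of sample 2 (0.0353%). Because the builds differ, the loci of sample 2 were placed by sliding its read ends along those of sample 1 and taking the shift with the most coincidences. At Spi1 the offset from mm8 to mm9 was 39318 bp, with 32 ends in common against 10 at the next best offset. At Etv6 it was -15675 bp, with 44 ends against 10, and at Elf1 1665652 bp, with 15 against 6. The densities of the samples alone would give 0.621, 1.14 and 0.464 coinciding ends at Spi1, Etv6 and Elf1. The Elf1 placement rests on the fewest ends, with 3, 4 and 8 in the first, middle and last part of the locus, where the next best shifts had 5, 4 and 5. In the first and middle parts, which hold Elf1 windows 1 to 4, the shift taken was thus not ahead by itself, and the values of sample 2 there rest on the shift of the whole locus.

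The first question was whether these loci as a whole held more reads than the genome. The Spi1 locus did, in both samples, and the Elf1 locus did not. Spi1 had 569 distinct reads in sample 1, or 5.69 per kb (exact Poisson 95% interval 5.23 to 6.18), and 362 in sample 2, or 3.62 per kb (3.26 to 4.01). These were 1.92 and 1.66 times the genome averages. Of the 100 kb tiles of the genome, 97.5% held fewer reads than the Spi1 locus in sample 1 and 96.3% in sample 2. Among tiles of chromosome 2 alone the shares were 95.4% and 93.6%. Tiles without any read were left out, here and for the other loci. All 10 of its 10 kb blocks lay above the genome average in each sample, with 38 to 69 reads in sample 1 where the average was 29.6, and 23 to 50 in sample 2 where it was 21.8.

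The Etv6 locus had 1046 distinct reads in sample 1, or 3.27 per kb (3.07 to 3.47), and 775 in sample 2, or 2.42 per kb (2.25 to 2.60). Those densities were 1.10 and 1.11 times the genome averages, and 79.5% and 81.5% of tiles of 320 kb held fewer. The Elf1 locus had 425 and 327 distinct reads, or 2.36 per kb (2.14 to 2.60) in sample 1 and 1.82 per kb (1.63 to 2.02) in sample 2, at 0.797 and 0.832 times the averages. Reads are unevenly spread, and the median 180 kb tile had 1.88 per kb in sample 1 and 1.44 in sample 2, below the averages. Of these tiles, 61.3% and 63.3% held fewer reads than the Elf1 locus. In each sample the intervals of the 3 densities did not overlap, with Spi1 highest, then Etv6, then Elf1.

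**Figure D1:**
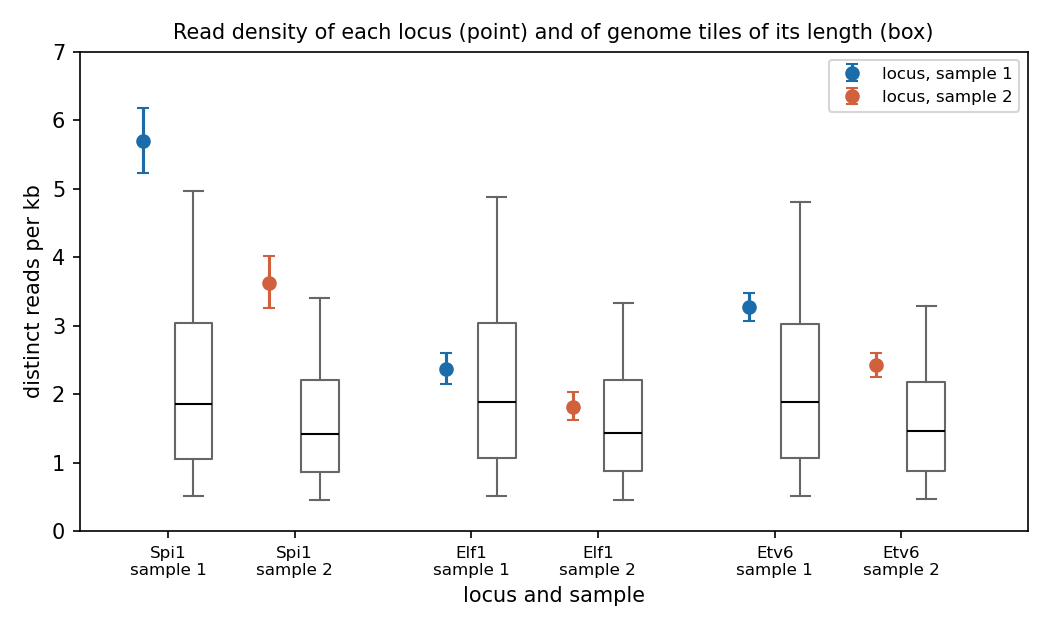
Distinct reads per kb (vertical axis) of each locus as points with exact Poisson 95% intervals, in sample 1 (blue) and sample 2 (orange). Beside them are boxes for the genome tiles of the same length that held any read (median, quartiles, and whiskers at the 5th and 95th percentiles). Spi1, at 5.69 and 3.62 reads per kb, lies above the upper whisker in both samples, while Elf1, at 2.36 and 1.82, lies inside its boxes.

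The high density of Spi1 was spread along the locus and was not set by a few windows. Reads within 500 bp of the centres of its 5 named windows made up 13.5% of its reads in sample 1 and 9.94% in sample 2. Outside them the locus still held 5.18 and 3.43 reads per kb, or 1.75 and 1.57 times the genome averages. At Etv6 the density outside the named windows was 1.05 and 1.08 times the averages, and at Elf1 it was 0.763 and 0.772 times. Without an input library, enrichment by Scl over a whole locus cannot be told apart from any other unevenness of the reads.

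The next question was where within the loci reads were concentrated. The test of each window was an exact Poisson test for an excess (one-sided). The expected reads came from the genome average or from the 10 kb around it, whichever was larger. A call required a Benjamini-Hochberg adjusted p under 0.01 over all windows of the genome, 5-fold or more over the expected reads, and each strand holding 20% of the reads or more. In sample 1, 4 windows of 1997 were called at Spi1 (0.2%), 9 of 6397 at Etv6 (0.141%) and 0 of 3597 at Elf1, where 0.00731% of all windows of the genome were called. Merged, these gave 2 regions at Spi1 and 3 at Etv6, where the genome had 0.574 regions per Mb. In sample 2, 0 windows were called at any of the 3 loci, where 0.00431% of all windows and 0.298 regions per Mb were called in the genome.

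With the median background of each locus, a call needed 10 reads in 200 bp at Spi1, and 8 at Elf1 and Etv6, in sample 1. In sample 2 it needed 9, 7 and 8 reads in the same order. A looser count, chosen after the calls were seen, took windows with an unadjusted p under 0.001 in the same test. By that count Spi1 had 19 windows in sample 1 (0.951%) and 6 in sample 2 (0.301%), and Etv6 had 32 (0.5%) and 8 (0.125%), where the genome had 0.142% in sample 1 and 0.0567% in sample 2. Elf1 had 3 (0.0834%) and 1 (0.0278%), below the genome's share in both samples. Neighbouring windows overlap, so these are not independent sites.

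Per locus 5 windows were named, those with the most reads in both samples together at least 1 kb apart, and each called region and each window of lowest p was among them. They are numbered along the locus. No mm8 or mm9 annotation was used, so the windows were located by the starts of neighbouring genes, found where reads of sample 2 matched RefSeq promoter sequences (GRCm38.p6). In RefSeq order Spi1 lies between Slc39a13 and Mybpc3, and Elf1 between Kbtbd7 and Sugt1. Gm52920 and Gm17089, a pair of long noncoding RNA genes, lie within the span of Etv6. No read was matched to a promoter of Elf1 or Etv6, and Spi1 has no entry among the promoters. Distances to the start of a member gene are therefore not given. Below, past a start means at higher coordinates and before it at lower ones, whatever the strand of the gene. Distances to a start run from the centre of the window. Slc39a13, Gm52920 and Gm17089 are on the minus strand, so a window past their start lies upstream of them. Mybpc3, Kbtbd7 and Sugt1 are on the plus strand.

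**Figure D2:**
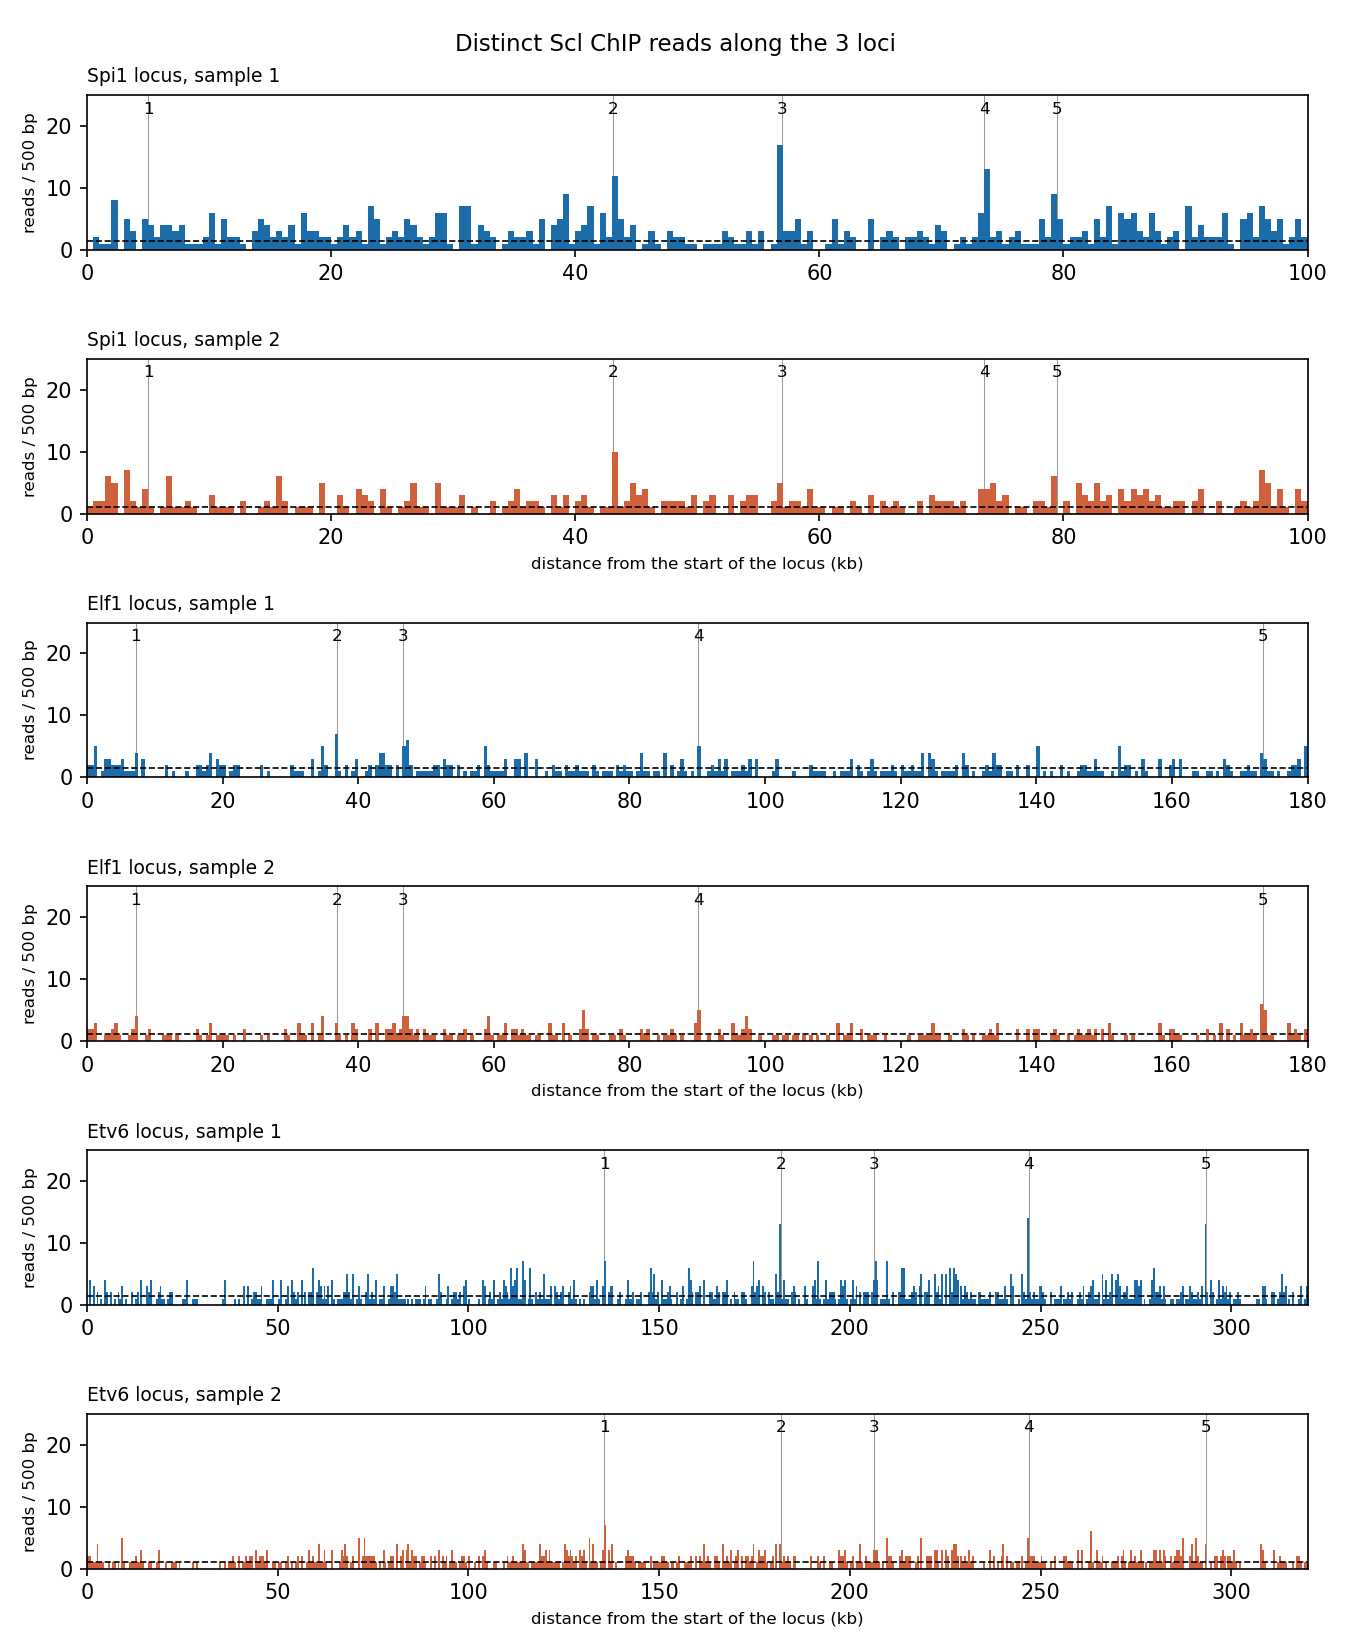
Distinct reads per 500 bp (vertical axis) by distance from the start of each locus in kb (horizontal axis), for sample 1 (blue) and sample 2 (orange), with the 5 named windows of each locus numbered and the genome average dashed. All 10 blocks of 10 kb at Spi1 lie above the average in both samples, and the tall bars of sample 1 at Spi1 window 3 and at Etv6 windows 2, 4 and 5 have much lower counterparts in sample 2.

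At Spi1 the strongest window of sample 1 was window 3, at chr2:90936801-90937000 (mm9), 26.4 kb past the start of Slc39a13 and 21.4 kb before that of Mybpc3. It had 16 distinct reads in sample 1, 6 in lane 7 and 10 in lane 8, where 1.08 were expected. That is 14.8-fold (exact Poisson 95% interval 8.47 to 24.1; adjusted p = 2.52e-09, exact Poisson test). The reads fell evenly on the strands, 8 and 8, with minus ends 155.5 bp past plus ends in the median, the layout of fragments around a centre. Sample 2 had 3 reads in the same window, or 4.69-fold (0.967 to 13.7; unadjusted p = 0.0273 and adjusted p = 1, exact Poisson test). In sample 2 minus ends lay 22 bp past plus ends in the median, from 2 plus and 3 minus ends.

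Spi1 window 2 lay 13.8 kb before window 3, at chr2:90923001-90923200 (mm9) and chr2:90883701-90883900 (mm8), 12.6 kb past the start of Slc39a13. It was the window of lowest p at Spi1 in sample 2, with 8 reads where 0.900 were expected, or 8.89-fold (3.84 to 17.5), 1 read short of a call (adjusted p = 0.0667, exact Poisson test). Sample 1, which had no part in that choice, had 6 reads there, or 4.11-fold (1.51 to 8.94; unadjusted exact p = 0.00392, adjusted p = 0.947). In 400 bp around the centre each sample had 10 reads, and 1 of the 8 reads of sample 2 had an end that sample 1 also had. This is the stretch with the RUNX cores shown above. Whether it is the upstream regulatory element was not determined from the files.

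Spi1 window 4, at chr2:90953401-90953600 (mm9), 4.8 kb before the start of Mybpc3, was also called in sample 1, with 10 reads, 5 per lane and 8 of the 10 on the plus strand (9.26-fold, 4.44 to 17.03; adjusted p = 0.00305, exact Poisson test). It had 2 reads in sample 2, or 2.78-fold. In sample 1 the ends were in the other order, with minus ends 54.0 bp before plus ends in the median. Windows 1 and 5 had 7 reads each in sample 1 (6.86-fold and 6.14-fold) and 4 and 5 reads in sample 2 (4.65-fold and 5.95-fold), and neither was called. Window 5 lay 1.2 kb past the start of Mybpc3, a gene of cardiac muscle, and window 1 lay 25.5 kb before the start of Slc39a13, outside the interval between the neighbours of Spi1.

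Etv6 had 3 regions called in sample 1, and window 4 was the called one with the most reads in sample 2. It lay at chr6:134176801-134177000 (mm9), between the starts of Gm52920 and Gm17089, 40.4 kb past that of Gm52920 and 21.9 kb before that of Gm17089. Sample 1 had 12 reads, 2 in lane 7 and 10 in lane 8, or 12.8-fold (6.60 to 22.3; adjusted p = 1.10e-05, exact Poisson test). Sample 2 had 5 reads, or 10.0-fold (3.25 to 23.3; unadjusted exact p = 0.000172, adjusted p = 0.525). Minus ends lay past plus ends by 111 bp in sample 1 and 146.5 bp in sample 2, an order that the choice of windows favours. Of the 5 reads of sample 2, 2 had an end also found in sample 1.

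Window 5 of Etv6, at chr6:134223251-134223450 (mm9), had the lowest p of the locus in sample 1, with 12 reads or 13.0-fold (6.74 to 22.8; adjusted p = 8.80e-06, exact Poisson test). Sample 2 had 1 read there, or 1.67-fold (0.0422 to 9.29); its interval spans 1. Window 2, at chr6:134111751-134111950 (mm9), had 10 reads in sample 1, or 11.6-fold (5.58 to 21.4; adjusted p = 0.000514, exact Poisson test), and 2 in sample 2, or 3.45-fold.

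Window 1 of Etv6 showed the reverse case, equal reads in both samples and a call in neither. At chr6:134065501-134065700 (mm9) sample 1 had 6 reads, or 8.57-fold (3.15 to 18.7; adjusted p = 0.224, exact Poisson test), and sample 2 also had 6, 5 of them on the plus strand, or 9.38-fold (3.44 to 20.4; adjusted p = 0.363). It was the window of lowest p in sample 2, and the unadjusted exact p of sample 1, which did not choose it, was 9.00e-05. Window 3, at chr6:134136351-134136550 (mm9), contained the start of Gm52920, 0.1 kb from the centre of the window. Its 9 reads in sample 1 gave 11.25-fold and an adjusted p of 0.00280 in the exact Poisson test, but 8 of the 9 were on the minus strand, so it was not called. Sample 2 had 3 reads there, all on the plus strand.

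**Figure D3:**
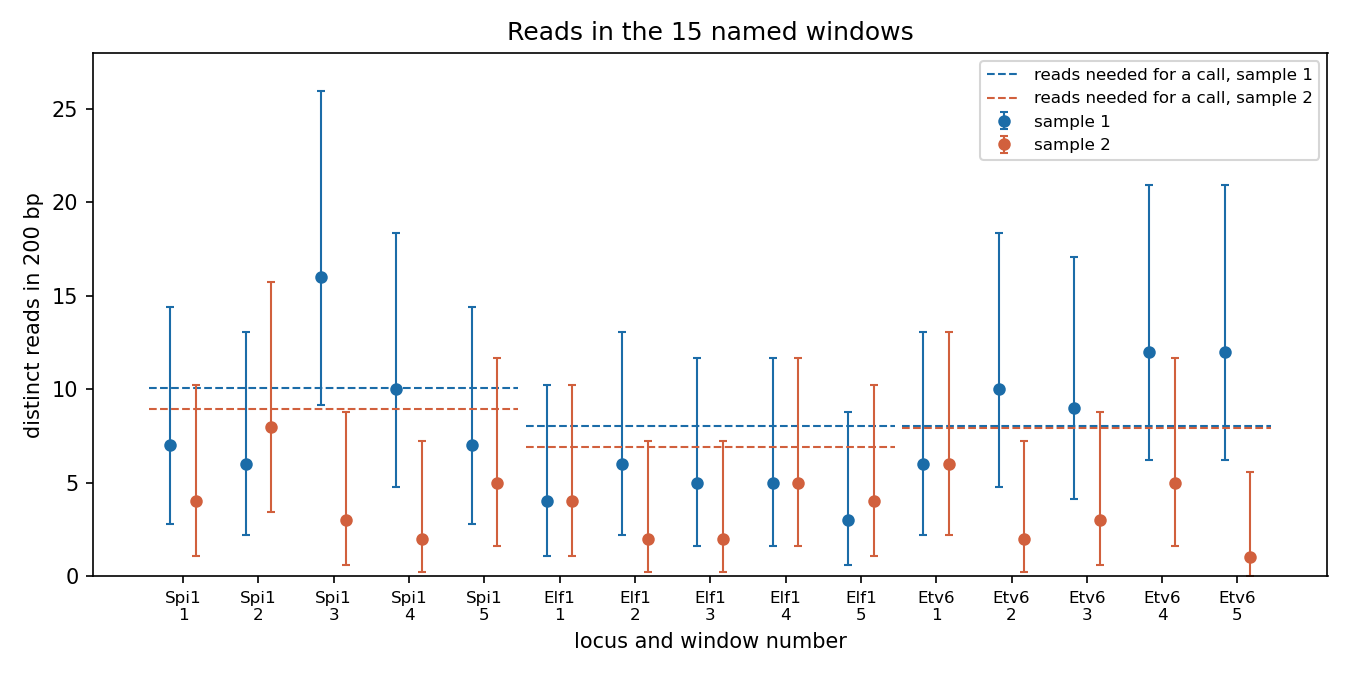
Distinct reads in 200 bp (vertical axis) for the 15 named windows, as points with exact Poisson 95% intervals, in sample 1 (blue) and sample 2 (orange); dashed lines give the reads a call needed at each locus. Spi1 windows 3 and 4 and Etv6 windows 2 to 5 reach the line in sample 1 (Etv6 window 3 fails on its strands), and no window reaches it in sample 2.

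Elf1 had no called window, and its windows held few reads in either sample. The window of lowest p in sample 1 was window 2, at chr14:79876701-79876900 (mm9), 50.5 kb past the start of Kbtbd7, with 6 reads or 10.1-fold (3.71 to 22.03; adjusted p = 0.122, exact Poisson test), and 2 in sample 2 (4.58-fold). In sample 2, placed as said by the whole locus, it was window 4, at chr14:78264351-78264550 (mm8) and chr14:79930001-79930200 (mm9), 57.4 kb before the start of Sugt1. Window 4 had 5 reads in each sample, or 8.43-fold in sample 1 (2.74 to 19.7; adjusted p = 0.383, exact Poisson test) and 11.4-fold in sample 2 (3.72 to 26.7; adjusted p = 0.363), with 3 plus and 2 minus reads in each and none of its ends shared between the samples. Windows 1, 3 and 5 held 3 to 5 reads in sample 1 and 2 to 4 in sample 2, and their adjusted p-values ran from 0.739 to 1 over both samples. Window 5 lay 26.0 kb past the start of Sugt1, outside the interval between the neighbours of Elf1.

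**Figure D4:**
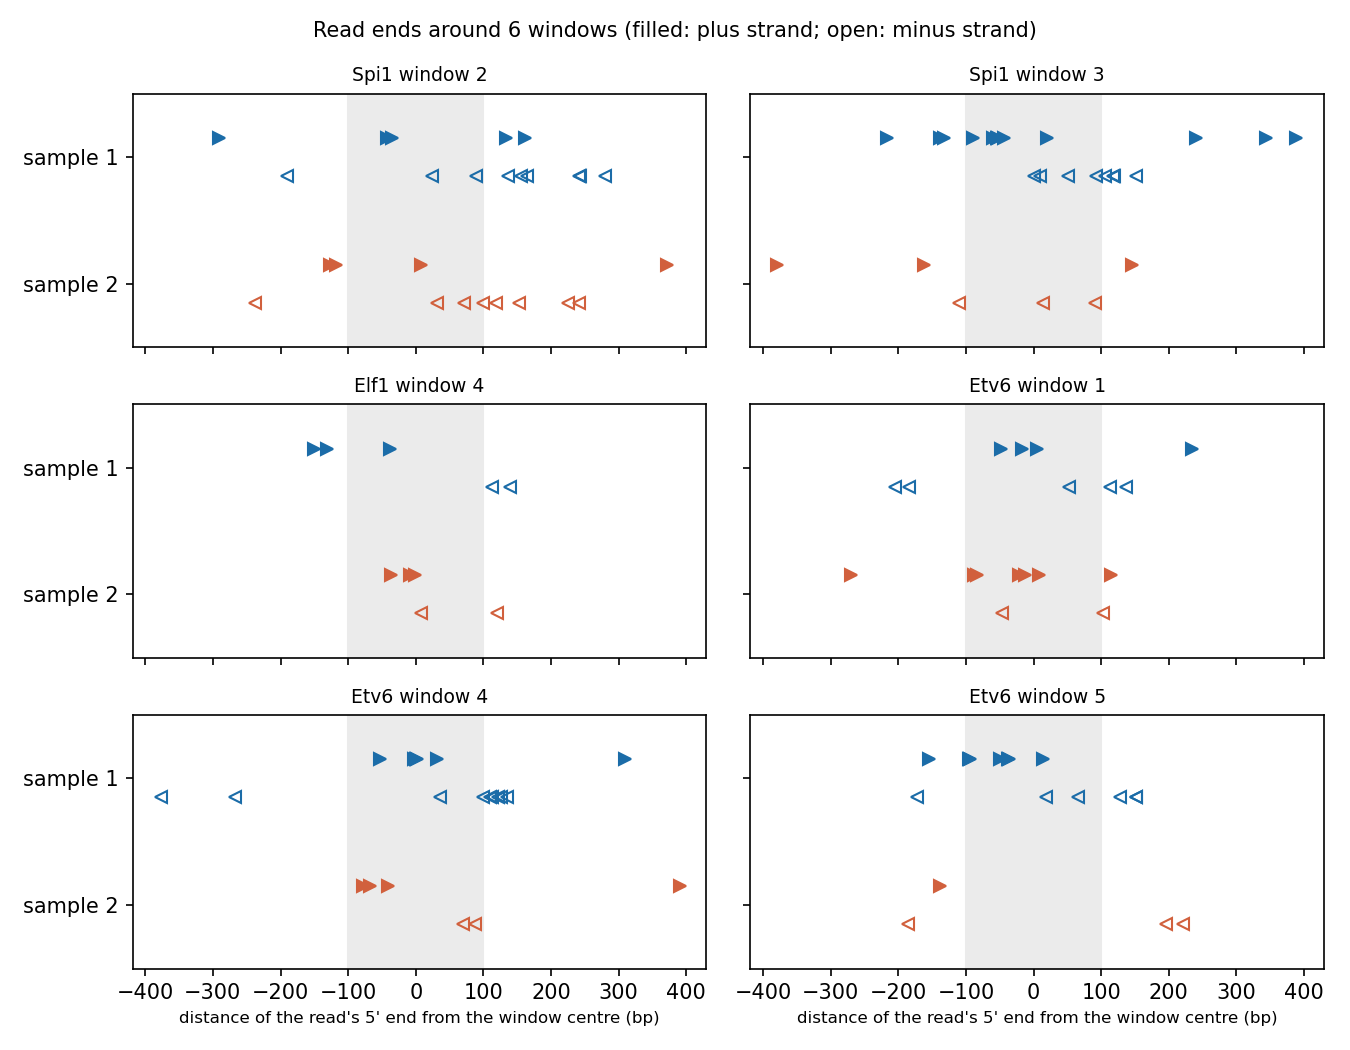
Distance of each read's 5′ end from the window centre in bp (horizontal axis) for 6 windows, with plus-strand ends filled and minus-strand ends open, sample 1 above sample 2, and the 200 bp window shaded. In Spi1 window 3 the plus ends of sample 1 sit mostly left and the minus ends right of the centre. In Etv6 window 4 the plus ends of sample 1 sit mostly near the centre and most minus ends right of it. The medians were 155.5 bp and 111 bp apart, in an order that the choice of windows favours.

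The genes were then compared at their strongest windows, with the summits chosen in sample 1 and the reads counted in 400 bp in sample 2. Sample 2 had 4 reads at Spi1, 3 at Etv6 and 3 at Elf1. The Etv6 summit was window 5, which had 12 reads in sample 1, as window 4 had (unadjusted exact p = 3.29e-10 and 4.18e-10). Window 4 had 5 reads in 400 bp in sample 2, more than the Spi1 summit, so the order of the genes depends on which of the pair is taken. Spi1 thus had 57.1% of the reads of Spi1 and Elf1 (exact binomial 95% interval 18.4 to 90.1), Etv6 had 50% of those of Etv6 and Elf1 (11.8 to 88.2), and Spi1 had 57.1% of those of Spi1 and Etv6. All 3 adjusted p-values were 1 (two-sided exact binomial test), and the intervals are too wide to show that the genes are alike. With the summits chosen in sample 2 and counted in sample 1, Spi1 had 10 reads, Etv6 6 and Elf1 5, and the lowest adjusted p of the 3 pairs was 0.682 by the same exact test. These tests set read counts against an even split and took no account of the background. At the summits chosen in sample 2, the reads expected in 200 bp of sample 1 were 1.46 at Spi1, 0.7 at Etv6 and 0.593 at Elf1. By fold in those windows Spi1 was lowest, at 4.11 against 8.57 at Etv6 and 8.43 at Elf1. The pair tests thus do not compare enrichment over background.

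At the summits chosen in sample 1, that sample had 17 reads in 400 bp and sample 2 had 4 at Spi1, 12 and 3 at Etv6, and 6 and 3 at Elf1. Choosing the summits in sample 1 raises its share there, so no test of this split is given. At the summits chosen in sample 2, sample 1 had 10 reads and sample 2 had 10 at Spi1, 6 and 8 at Etv6, and 5 and 5 at Elf1. That choice in turn raises the share of sample 2. Of all distinct reads of the genome, 57.6% were from sample 1. Over whole loci, sample 1 gave 61.1% of the Spi1 reads (57.9 to 64.3), 57.4% of the Etv6 reads (55.1 to 59.7) and 56.5% of the Elf1 reads (52.9 to 60.1). The lanes of sample 1 split the loci much as they split the genome: lane 8 gave 71.7% of the lane-wise distinct reads at Spi1, 69.1% at Etv6 and 71.0% at Elf1, against 71.4% over all chromosomes.

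Motifs were counted over the 300 bp around the centre of each of the 15 windows, and a window is said to hold a motif found there. Of the 300 bases, reads of sample 2 covered 32 to 186 per window (median 102). GATA motifs were found in 2 of the 15, Etv6 windows 3 and 4, or 1.32 sites per kb of covered sequence. The 784 regions called in sample 2 over the genome had 3.53 per kb and held a GATA motif in 45.3% of cases, at a median of 189 covered bases, and all 32851 RefSeq promoters of 300 bp had 1.32 per kb and held one in 29.8%. E-boxes were in 6 windows, at 6.61 sites per kb, against 6.38 in the called regions and 4.64 in promoters. ETS cores were in 9 windows, at 11.9 per kb, against 12.6 and 11.7. RUNX cores were in 1 window, at 1.32 per kb, against 1.77 and 0.856. CAGCTG, which is also counted as an E-box, was in 1 window, and 18.2% of the called regions and 16.3% of promoters held it. The E-box and GATA pair was in 0 windows, 6.38% of the regions and 0.648% of promoters. With 1514 covered bases in all and fewer per window than in the called regions, shares of windows cannot be set directly against shares of regions.

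The other ETS family genes were seen only at promoters that reads of sample 2 matched. Of 26 genes on the list, which includes Spi1, Elf1 and Etv6, 21 had a promoter sequence and 10 were matched, with 12 promoters between them. They had a median of 5 reads in the 2 kb around the start (3 to 12), beside 6 at all 12084 matched promoters and a genome average of 4.37. The highest was an Elf5 promoter with 12 reads, followed by Erg with 11, and none of the members was among those matched. A promoter needed a read to be matched, which raises these numbers.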

How the data were processed

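The authors deposited aligned reads. Per the labels, sample 1 (lanes 7 and 8) was aligned with the Solexa software and sample 2 with Eland, and the deposited text gives builds mm9 and mm8. No aligner version, and no statement that the reads of sample 1 had 1 place each, was found in the labels or headers. The deposited file of sample 1 also holds a score per read, which was not used. Reads of sample 2 with several places, none or poor quality were not used, nor were reads of the mitochondrial genome.

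Reads of 1 chromosome, strand and 5′ end were counted once (94.8% and 96.6% of the reads were distinct) and moved by 0.5 fragment lengths, the fragment length (118 and 126 bp) being the maximum of plus and minus end pairs smoothed over 21 bp. Windows of 200 bp began every 50 bp and were tested as described, and called windows within 200 bp were merged. Where a window was set by one sample, the other sample's value is that of its nearest tested window. Substitutions put back into the reads equalled the base of error-free reads at 99.7% of 4790 checked positions on chromosome 19. Promoters were matched by 23 bases of error-free reads, and neighbours of the members with up to 2 mismatches.

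The members, lists and windows were chosen with earlier results of these data known. Windows were named by reads in both samples, calls and lowest p. Scripts were tested on simulated data. Python 3.11.15, NumPy 2.4.6 and SciPy 1.17.1 were used.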

Additional observations from a re-analysis of the deposited data

How the results depend on the processing

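Over both samples 4 windows were called at Spi1, 9 at Etv6 and 0 at Elf1. Leaving out sample 1 or sample 2 gave 0 to 4, 0 to 9 and 0 to 0, all calls being those of sample 1. Elf1 stayed at 0 under every setting tried. At Spi1, 7 windows were called with every read counted, 10 with windows of 400 bp, 15 against the genome average only, 2 with reads not moved and 2 with lane 8 in place of sample 1. At Etv6, 15 were called with windows of 400 bp, 2 with reads not moved and 5 with lane 8 in place of sample 1. The window of lowest p in sample 1, with the reads of both samples together, was at 11.05-fold at Spi1 (6.65 to 17.3), 8.55-fold at Etv6 (4.55 to 14.6) and 7.77-fold at Elf1 (3.35 to 15.3). Other windows were higher by that measure, at 11.8-fold for Etv6 window 4 and 9.71-fold for Elf1 window 4. Under other settings the window of lowest p was chosen again, so the next folds can belong to other windows. Against the genome average only, the fold was 18.5 at Spi1 and 16.5 at Etv6. With windows of 400 bp it was 6.10 at Spi1, 5.56 at Etv6 and 4.84 at Elf1. With reads not moved it was 6.98 at Spi1, 11.1 at Etv6 and 4.86 at Elf1. Etv6 was also above Spi1 with every read counted (12.2 against 10.8) and with lane 8 in place of sample 1 (12.7 against 9.70). With a local background of 50 kb they were close, at 11.1 and 10.9. In the other settings with a fold for both genes Spi1 was above Etv6, so their order depends on the processing. At the windows of lowest p first described, each sample by itself gave 4.69 to 14.8-fold at Spi1, 1.67 to 13.0-fold at Etv6 and 4.58 to 10.1-fold at Elf1. With every read counted Spi1 had 44.4% of the reads of Spi1 and Etv6 (adjusted p = 1, exact binomial test), the other side of an even split; the cause was not tested. With 200 bp around the summits, Spi1 had 100% of the reads of Spi1 and Etv6, and Etv6 had 0% of those of Etv6 and Elf1 (adjusted p = 0.75 for both, exact binomial test). These shares rest on very few reads of sample 2. In the nearest tested windows it had 3 reads at Spi1, 1 at Etv6 and 2 at Elf1, so the 0% depends on where the 200 bp are placed. Reads moved by 70 bp, tried after the data had been seen, changed no call count by over 1.5 times and no direction. No paired analysis was possible because there is only 1 group.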
